A study of Mus musculus with 4 samples.

Results

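The 8 genes described here encode the ERBB family of growth factor receptors (Egfr, Erbb2, Erbb3 and Erbb4), 2 proteins that restrain these receptors (Lrig1 and Errfi1) and the 2 membrane proteases that release most of their ligands (Adam17 and Adam10). They were chosen by gene symbol from the 32227 genes listed in the files, and each symbol was found once. All 8 had at least 10 UMIs (unique molecular identifiers, that is counted RNA molecules) over both libraries of each comparison. RNA was measured in single epithelial cells from the corpus (the acid-secreting main part) of the mouse stomach, in 4 libraries, 1 per group. The mice were wild-type C57BL6/J animals aged 6 to 7 weeks. The groups were untreated controls that received PBS, mice 1 day after a single oral dose of 350 mg/kg L635 (the acute injury phase), mice 3 days after L635 that also received AREG, and mice 3 days after L635 without AREG (the recovery phase). L635 is a compound toxic to parietal cells, and AREG (amphiregulin) is a ligand of EGFR whose dose and route were not given in the labels. With 1 library per group, no difference could be checked against replicates, no test could be run, and every interval covers counting error only. Whether a library holds 1 mouse or several was not given either.

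ERBB receptors are tyrosine kinases of the cell surface that act in pairs. EGFR binds AREG and related ligands, ERBB3 and ERBB4 bind neuregulins, and ERBB2 has no known soluble ligand and serves as the partner of the others. Most ligands are made as membrane proteins and must be shed, AREG and TGFA mainly by ADAM17, EGF and betacellulin mainly by ADAM10. LRIG1 promotes the degradation of the receptors and ERRFI1 (also called MIG6) binds and inhibits their kinase domain, and both genes are known to be switched on by receptor signalling in other tissues. In the stomach, EGFR signalling is known for its part in surface cell growth and in repair after injury.

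The promoters of Egfr, Erbb2 and Errfi1 are shown because the first 2 genes had the most similar pattern of all member pairs and the third had the highest ratio of day 3 to untreated. Sequences are the 250 bases before an annotated start, from RefSeq on build GRCm38.p6, 5′ to 3′ on the plus strand, with matches on either strand in capitals. Windows were found for 7 of the 8 members. The CRE, a site of the cAMP-responsive factor CREB, was searched as TGACGTCA. The site of AP-1, a target of ERK signalling, was searched as TGANTCA. The GC box, a site of SP1, was searched as GGGCGG and the TATA box of core promoters as TATAAA. The CCAAT box was searched by its own letters, and the E-box of MYC-type factors as CACGTG. Overlapping matches were counted.
Egfr, chr11:16751953-16752202: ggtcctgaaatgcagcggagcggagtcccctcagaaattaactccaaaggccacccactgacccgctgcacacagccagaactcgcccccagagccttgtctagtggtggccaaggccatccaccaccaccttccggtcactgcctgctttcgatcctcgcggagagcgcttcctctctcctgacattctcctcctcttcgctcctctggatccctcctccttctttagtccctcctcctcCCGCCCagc
Erbb2, chr11:98412234-98412483: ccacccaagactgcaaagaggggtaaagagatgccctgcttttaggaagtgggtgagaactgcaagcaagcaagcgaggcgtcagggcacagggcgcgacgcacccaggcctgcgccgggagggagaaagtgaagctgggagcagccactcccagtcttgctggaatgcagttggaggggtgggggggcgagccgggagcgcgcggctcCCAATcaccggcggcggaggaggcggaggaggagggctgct
Errfi1, the second of its 2 starts, chr4:150854820-150855069: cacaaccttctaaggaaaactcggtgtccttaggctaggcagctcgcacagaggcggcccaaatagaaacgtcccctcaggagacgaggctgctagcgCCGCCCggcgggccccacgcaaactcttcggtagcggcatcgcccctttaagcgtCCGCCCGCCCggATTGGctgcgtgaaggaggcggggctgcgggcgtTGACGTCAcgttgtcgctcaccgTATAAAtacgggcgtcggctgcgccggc

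The Errfi1 window shown held 1 match to the CRE, 3 to the GC box, 1 to CCAAT and 1 to TATAAA. The window of the first Errfi1 start, not shown, held none of the 6 motifs. The Egfr window held 1 GC box and the Erbb2 window 1 CCAAT. Of 32851 windows of the same length, 1.55% held the CRE, 6.75% AP-1, 32.7% a GC box, 33.8% CCAAT, 12.4% TATAAA and 6.02% CACGTG. The Errfi1 window shown had 64.8% G and C, that of Egfr 60.8% and that of Erbb2 66.0%, against a median of 52.4% over all windows. These matches describe letters and show neither binding nor use.

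The libraries held 98893436 UMIs (untreated), 56007532 (day 1), 81286332 (day 3 with AREG) and 62591649 (day 3), and 13870, 3743, 12907 and 7962 epithelial cells in that order. At most 3 cell barcodes were shared between any 2 libraries. Clusters called epithelial had 51.6 to 1394 CPM (UMIs of a gene per 1000000 UMIs) of the epithelial gene Epcam, against 4.71 and 12.4 CPM in the 2 clusters set aside. The day 1 library stands apart: 2600 of its 3743 epithelial cells, with 88.6% of its epithelial UMIs, fell in unnamed clusters, nearly all in 1 led by S100a6, Msln, Plac9 and Krt7. Each day 1 level over all epithelial cells is therefore mainly that cluster's level. The share of epithelial UMIs taken by the 20 most abundant genes was 42.1% untreated, 27.5% at day 1, 26.6% at day 3 with AREG and 29.6% at day 3, and the CPM of all other genes moves with that share.

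Of the 4 receptors, Erbb2 and Erbb3 were more than 2-fold higher in every L635 library than in the untreated one, Egfr was so at day 1 alone, and Erbb4 was highest at day 3. Levels are CPM summed over epithelial cells, with exact Poisson 95% intervals. Egfr, the receptor of AREG, had 6.78 CPM in the untreated library (6.15 to 7.47), 14.7 at day 1 (13.5 to 15.9), 10.4 at day 3 with AREG (9.50 to 11.3) and 11.6 at day 3 (10.6 to 12.7). Its untreated level was the lowest and its day 1 level the highest, while the intervals of the 2 day 3 libraries overlap. Erbb2, the partner receptor without a ligand, had 15.1 CPM untreated (14.2 to 16.1), 38.4 at day 1 (36.4 to 40.4), 31.8 at day 3 with AREG (30.2 to 33.3) and 36.3 at day 3 (34.5 to 38.2). The untreated level lies far below the other 3, and the intervals of day 1 and day 3 overlap. Erbb3, a neuregulin receptor whose own kinase is nearly inactive, had 20.7 CPM untreated (19.6 to 21.9), 56.2 at day 1 (53.9 to 58.6), 45.6 at day 3 with AREG (43.8 to 47.5) and 46.9 at day 3 (44.9 to 49.0). Day 1 was highest, and the 2 day 3 levels do not differ beyond their intervals. Erbb4, the neuregulin receptor with an active kinase, had 6.80 CPM untreated (6.17 to 7.48), 10.6 at day 1 (9.57 to 11.7), 12.4 at day 3 with AREG (11.4 to 13.4) and 14.6 at day 3 (13.5 to 15.8). Its order differs from that of the other receptors, with day 3 without AREG at the top and day 1 and day 3 with AREG overlapping at their bounds.

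The 2 inhibitors reached their highest levels at day 3. Lrig1, also known as a marker of progenitor cells in several epithelia, had 13.6 CPM untreated (12.7 to 14.6), 22.2 at day 1 (20.7 to 23.7), 39.1 at day 3 with AREG (37.4 to 40.8) and 38.2 at day 3 (36.3 to 40.1). It was the member with the clearest step between day 1 and day 3, and the 2 day 3 libraries overlap. Errfi1 had 14.0 CPM untreated (13.1 to 14.97), 36.9 at day 1 (35.03 to 38.9), 41.7 at day 3 with AREG (39.9 to 43.5) and 41.1 at day 3 (39.2 to 43.1). Most of its difference from the untreated library was present at day 1.

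The sheddases were also lowest in the untreated library. Adam17, the main sheddase of AREG, had 9.09 CPM untreated (8.35 to 9.87), 14.6 at day 1 (13.4 to 15.9), 19.8 at day 3 with AREG (18.6 to 21.1) and 18.0 at day 3 (16.8 to 19.3). Adam10, which also cleaves Notch receptors, had 33.9 CPM untreated (32.4 to 35.3), 82.2 at day 1 (79.3 to 85.1), 81.9 at day 3 with AREG (79.5 to 84.4) and 89.3 at day 3 (86.4 to 92.2). Adam10 at day 1 and at day 3 with AREG could not be told apart by counting, whereas Adam17 was higher in both day 3 libraries than at day 1.

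**Figure D1:**
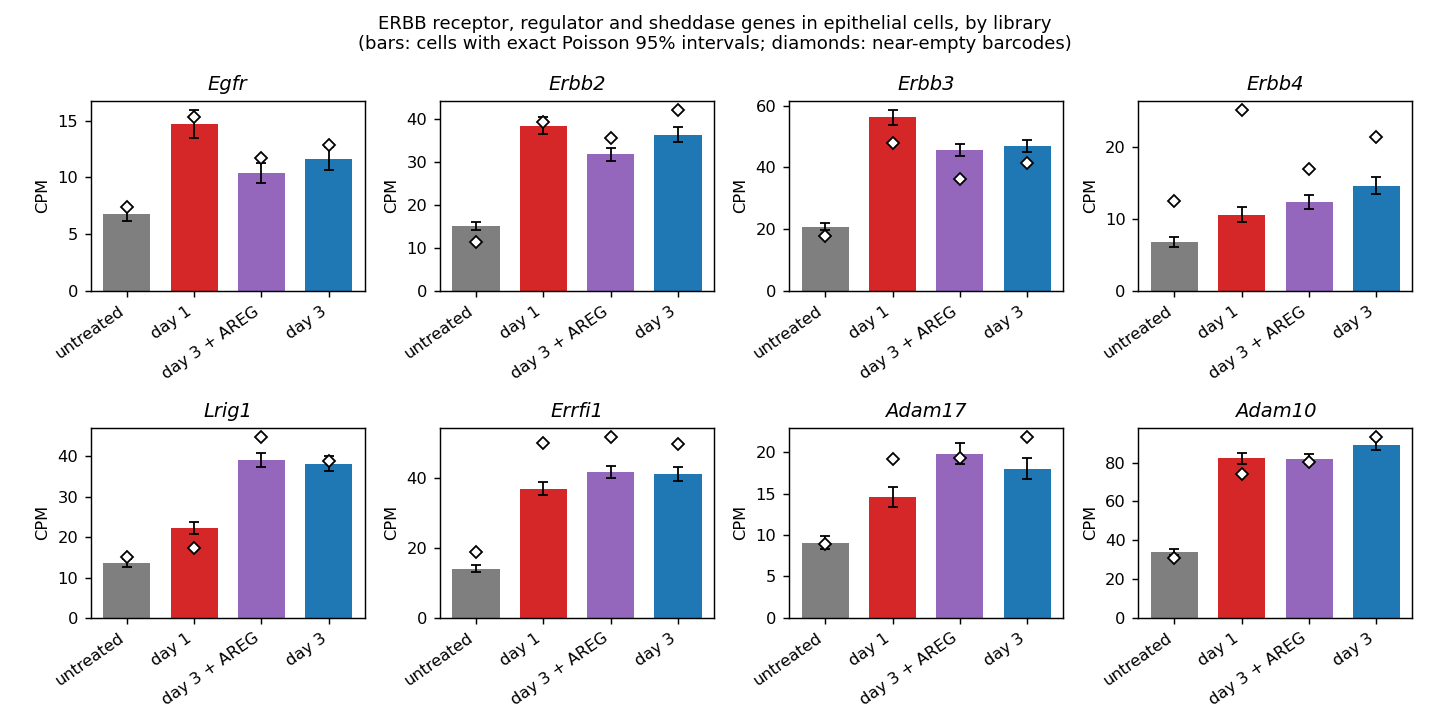
Levels of the 8 genes (CPM, y axis) in epithelial cells of the 4 libraries, as bars with exact Poisson 95% intervals, and in near-empty barcodes as diamonds. All 8 bars are lowest in the untreated library, and the diamonds lie above the bars in all 4 libraries for Egfr, Erbb4 and Errfi1.

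RNA outside cells also held the members. In barcodes with under 50 UMIs, Erbb2 had 11.3 CPM untreated, 39.2 at day 1, 35.5 at day 3 with AREG and 42.1 at day 3, and Adam10 had 30.9, 74.0, 80.2 and 93.3 in that order. Erbb4 in near-empty barcodes was above its level in cells in every library, at 12.5 CPM untreated, 25.2 at day 1, 16.96 at day 3 with AREG and 21.4 at day 3, so that its highest level there was at day 1 and not at day 3. Egfr and Errfi1 in these barcodes were also above their levels in cells in every library and lowest untreated, and Egfr had the same order of libraries as in cells. Lrig1 had 15.2 CPM untreated and 17.2 at day 1 in these barcodes, a smaller difference than in cells. As in cells, Lrig1 there was higher in both day 3 libraries than at day 1. The estimated share of free RNA in the cells' UMIs, an upper estimate from blood cell genes, was 8.66% untreated, 47.4% at day 1, 37.9% at day 3 with AREG and 53.5% at day 3. Its part in the members' differences was not tested beyond a subtraction over all epithelial cells, which was not made within classes. After subtraction, 4 of the 8 members were past 2-fold in either direction for day 1 against untreated, with Erbb4 on the lower side. The count was 4 for day 3 against untreated and 5 for day 3 with AREG against untreated. The median log2 ratio over all genes after subtraction was 0.053, 0.108 and 0.217 for these comparisons in that order. The share of all genes past 2-fold after subtraction was not computed. These counts are therefore not read as a result about the members.

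For day 1 against untreated, the question is how the receptor system stood in the acute injury phase. Of the 8 members, 5 were at least 2-fold higher at day 1 (Egfr, Erbb2, Erbb3, Errfi1 and Adam10) and none 2-fold lower, where 13.4% of 20880 genes were at least 2-fold higher and 1.95% lower. Ratios are given as log2 of CPM + 1, a scale that makes low genes differ less than they do. The ratio was largest for Erbb3 at 1.40, a 2.71-fold difference of CPM without the pseudocount (95% interval 2.53 to 2.91). Errfi1 had 1.34 (2.64-fold, 2.42 to 2.87), Erbb2 1.29 (2.54-fold, 2.34 to 2.76), Adam10 1.25 (2.43-fold, 2.30 to 2.57) and Egfr 1.01 (2.16-fold, 1.90 to 2.46). The interval of Egfr includes 2-fold. Lrig1 at 0.67, Adam17 at 0.63 and Erbb4 at 0.57 were higher at day 1 by less than 2-fold.

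The members' median log2 ratio was 1.13, beside 0.23 over all genes tested. Genes of like abundance were also higher at day 1: among 5290 genes with 10.9 to 71.8 CPM on average, the members' own range, 26.4% were at least 2-fold higher at day 1 and the median was 0.61. With totals that omit mitochondrial and ribosomal protein genes and the 20 next most abundant ones, 2 members stayed past 2-fold with a median of 0.84, and the genes of like abundance had 12.9% and 0.30. Without the unnamed epithelial clusters, 2 of the 8 were past 2-fold and the median was 0.91, beside 0.52 over all genes. The share of all genes past 2-fold was not computed for that setting. Erbb4 turned to -2.86 when free RNA was subtracted, and stood at 1.29 with all cells included, so the direction of Erbb4 at day 1 depends on these settings.

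For day 3 against day 1, the recovery phase against acute injury, no member differed by 2-fold in either direction, where 3.51% of 21035 genes were at least 2-fold higher and 3.79% lower. Lrig1 was higher at day 3 by 0.76 on the log2 scale (1.72-fold, 1.59 to 1.87). Erbb4 was higher by 0.43 (1.38-fold, 1.22 to 1.57) and Adam17 by 0.29 (1.23-fold, 1.10 to 1.38). Egfr was lower at day 3 with -0.31 (0.792-fold, 0.7003 to 0.895) and Erbb3 with -0.26 (0.834-fold, 0.785 to 0.887), whereas the interval of Erbb2 at -0.08 includes no difference. Errfi1 at 0.15 and Adam10 at 0.12 were slightly higher at day 3. The median of the members was 0.13, beside 0.07 over all genes.

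Several of these small ratios depend on which cells are counted. Without the unnamed clusters, Lrig1 was -0.15, Errfi1 -0.69, Erbb2 0.31 and Erbb3 0.38. With the make-up of classes held constant, the members' median was -0.22, Errfi1 was -0.62 and Erbb4 -0.09. That setting used only classes with at least 100 cells in both libraries, and so left out the unnamed cells. Its weights were 75.3% parietal-like, 16.9% pit-like and 7.87% neck-like. Erbb4 was -0.29 with all cells included. Subtracting free RNA gave Erbb4 2.95, the one member then past 2-fold, and Adam10 -0.06.

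**Figure D2:**
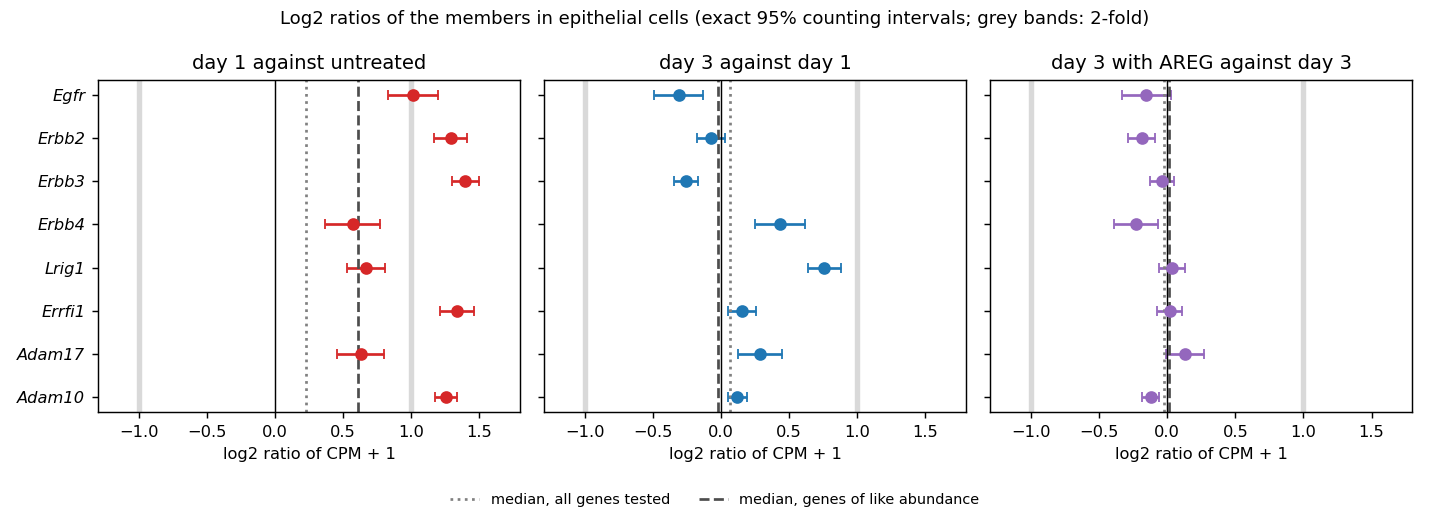
Log2 ratios of CPM + 1 (x axis) of the 8 genes in epithelial cells for the 3 main comparisons, the first-named library over the second, with exact 95% counting intervals shifted onto that scale. Day 1 against untreated lies right of 0 for all 8 genes, and day 3 with AREG against day 3 lies between -0.23 and 0.13.

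For day 3 with AREG against day 3, the effect of the added ligand on its own receptor system, no member differed by 2-fold. This is the comparison with the fewest differences in all: 0.0511% of 21547 genes were at least 2-fold higher with AREG and 0.227% lower. The member ratios ran from -0.23 to 0.13 with a median of -0.08, beside -0.03 over all genes. Erbb4 had -0.23 (0.845-fold, 0.755 to 0.945), Erbb2 -0.19 (0.874-fold, 0.815 to 0.938) and Adam10 -0.12 (0.918-fold, 0.878 to 0.959), so these 3 were lower with AREG beyond counting error. Adam17 at 0.13 was the highest (1.10-fold, 1.00 to 1.21). The intervals of Egfr (-0.15), Erbb3 (-0.04), Lrig1 (0.03) and Errfi1 (0.02) include no difference. After free RNA was subtracted Erbb4 was 0.43 and Lrig1 -0.06, and Errfi1 was -0.01 over cells with at least 1000 UMIs and -0.03 with class make-up held. Over the alternatives the ratio of Erbb2 ran from -0.231 to -0.00196, and that of Adam10 from -0.165 to -0.0179. The size of the Erbb2 and Adam10 differences therefore depends on the setting.

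Against the untreated library, 6 of the 8 members were at least 2-fold higher at day 3 with AREG, where 9.27% of 21431 genes were so and 0.854% were 2-fold lower. At day 3 without AREG the count was also 6, where 10.5% of 21433 genes were higher and 0.942% lower. Both comparisons share the untreated library with that of day 1 and are no independent support for it. Errfi1 was 2.97-fold higher at day 3 with AREG (2.75 to 3.22) and 2.93-fold at day 3 (2.70 to 3.19), and Lrig1 was 2.87-fold (2.65 to 3.12) and 2.81-fold (2.58 to 3.06) higher. Erbb2, Erbb3 and Adam10 were the other members past 2-fold in both. Adam17 was past it with AREG alone, at 2.18-fold against 1.98-fold without, and Erbb4 without AREG alone, at 1.82-fold with AREG and 2.15-fold without. These pairs of values straddle the threshold and were not tested against each other. Egfr was 1.53-fold higher with AREG and 1.71-fold without. The median was 1.07 with AREG and 1.18 without, beside 0.25 and 0.29 over all genes. Among genes of like abundance, 21.1% were 2-fold higher with AREG and 22.3% without, with a median of 0.60 in both.

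The classes named from marker genes showed where each member was expressed. Pit-like cells (mucous cells of the surface) carried the highest Egfr, Erbb2, Erbb3 and Adam10 of the 4 main mature classes in the untreated library, though the interval of Egfr, 9.14 CPM (7.90 to 10.5), overlaps that of neck-like cells, 8.23 (6.15 to 10.8). Erbb2 had 24.8 CPM in untreated pit-like cells (22.7 to 27.0), 12.7 in neck-like, 1.49 in chief-like and 9.69 in parietal-like cells. Erbb3 had 33.6 CPM in pit-like cells (31.2 to 36.2), 21.5 in neck-like, 1.91 in chief-like and 9.36 in parietal-like cells. Pit-like cells held 34.1% of untreated epithelial UMIs but 55.9% of the Erbb2 and 55.3% of the Erbb3 UMIs. Tuft-like cells, a rare chemosensory class, had 44.4 CPM of Erbb3 from 127 cells (24.3 to 74.4), an interval that includes the pit-like level.

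Lrig1 had the opposite pattern. Parietal-like cells, which secrete acid, had 39.8 CPM of Lrig1 in the untreated library (35.7 to 44.1), neck-like cells 25.0 (21.3 to 29.2), chief-like cells 4.36 and pit-like cells 3.19 (2.47 to 4.05). Parietal-like cells thus held 42.6% of untreated Lrig1 UMIs with 14.6% of all epithelial UMIs. At day 3 with AREG the parietal-like level was 73.6 CPM (69.6 to 77.8), and at day 3 it was 75.9 (71.4 to 80.6), and these cells held 60.9% and 66.4% of the Lrig1 UMIs with 32.4% and 33.4% of all epithelial UMIs. Most parietal-like cells lay in different clusters, with 2125 of 3103 in cluster 4 at day 3 with AREG and 1176 of 1842 at day 3, against 2411 of 3780 in cluster 0 untreated. The same cells stayed low in Egfr, at 4.34 CPM untreated, 3.58 at day 3 with AREG and 3.93 at day 3.

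Among classes with at least 100 cells, Errfi1 was highest in neck-like cells, the mucous cells of the gland neck: 26.6 CPM untreated (22.7 to 30.9), 111 at day 1 (75.9 to 157), 64.4 at day 3 with AREG (59.2 to 70.0) and 91.4 at day 3 (83.0 to 100). The day 1 value rests on 139 cells. Untreated chief-like cells, which make digestive zymogens, had at most 5.74 CPM of 7 members, with 5.74 of Errfi1, 2.66 of Adam10, 2.44 of Egfr and 1.81 of Adam17. Erbb4 was the exception, at 8.18 CPM in chief-like cells (6.46 to 10.2), close to the 8.02 of parietal-like cells.

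**Figure D3:**
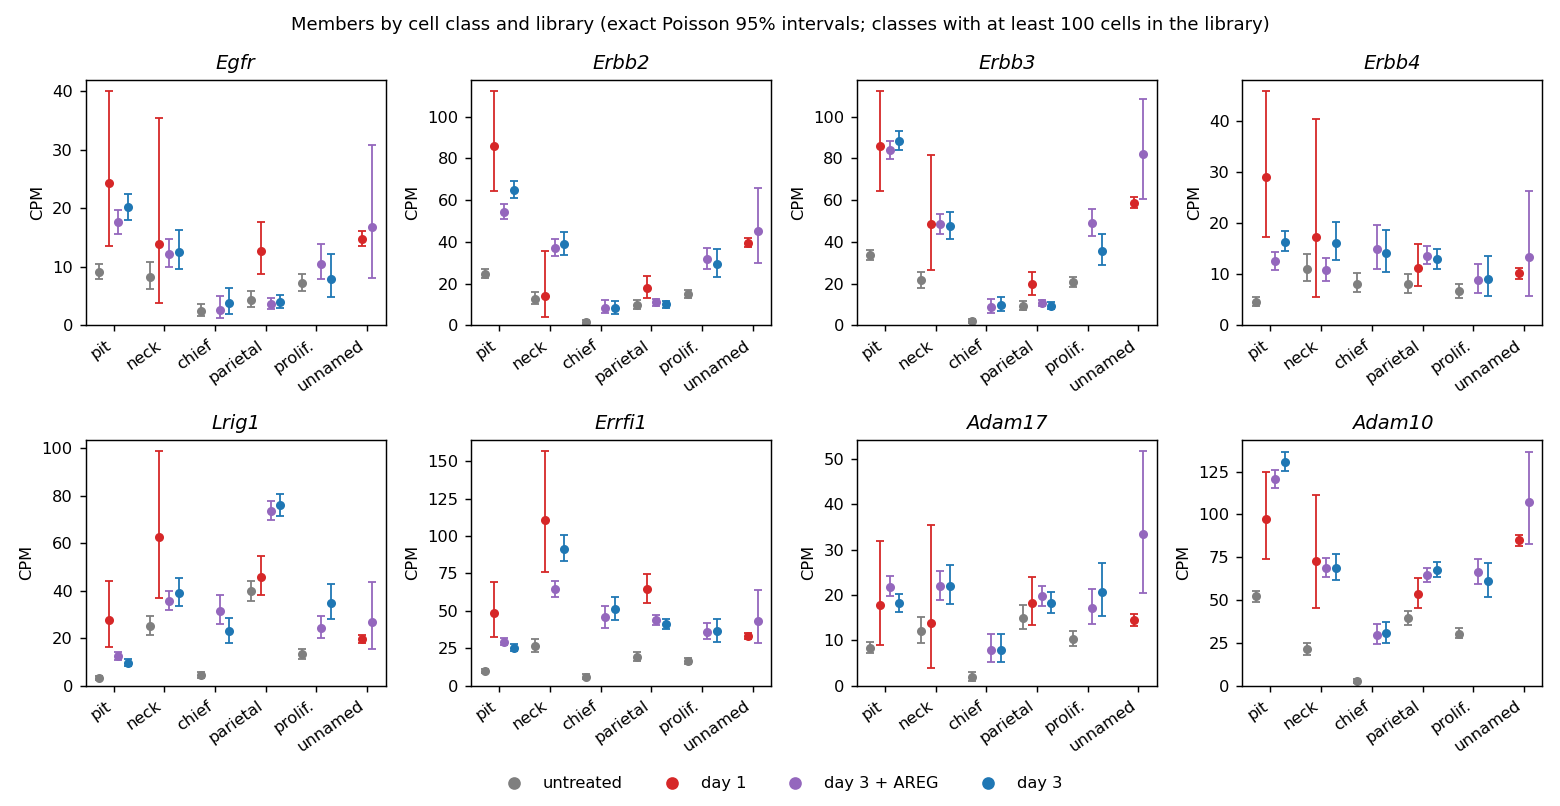
CPM (y axis) of each gene in the pit-like, neck-like, chief-like, parietal-like, proliferating-like and unnamed epithelial classes (x axis), by library, with exact Poisson 95% intervals, for classes with at least 100 cells in the library. Erbb2, Erbb3 and Adam10 stand highest in pit-like cells and Lrig1 in parietal-like cells at day 3, with or without AREG.

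Within classes, the libraries 3 days after L635 were higher than the untreated one in most members. In pit-like cells all 8 members were at least 2-fold higher at day 3 than untreated, where 22.2% of 16783 genes were. Adam10 had 131 CPM at day 3 (125 to 136) against 52.1 untreated (49.1 to 55.3), and Erbb2 had 65.0 (61.2 to 69.0) against 24.8. Erbb4 had 16.4 (14.5 to 18.5) against 4.57 untreated (3.70 to 5.58), the largest pit-like ratio at 1.64. The largest pit-like clusters differed between the libraries, with 1809 of 4347 cells in cluster 13 at day 3, and 1806 and 1641 of 4585 cells in clusters 15 and 16 untreated. Within cluster 16 alone, Adam10 had 126 CPM at day 3 against 51.4 untreated and Erbb2 53.4 against 21.8. In near-empty barcodes of both these libraries, Erbb4 and Lrig1 were above their levels in all pit-like cells, and Erbb2 and Adam10 were below theirs. Without a subtraction within classes, the part of free RNA in the pit-like differences was not tested.

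In chief-like cells 6 of 8 members were at least 2-fold higher at day 3 than untreated, where 53.0% of 13737 genes were so. With a background that high, the count is not read as a result about the members. With a finer clustering (resolution 2), cluster 21 held 1079 untreated and 50 day 3 chief-like cells, and cluster 14 held 41 and 371. Adam10 had 30.6 CPM at day 3 (25.1 to 37.1) against 2.66 untreated (1.72 to 3.92), a log2 ratio of 3.11 beside a median of 1.06 over all genes. Errfi1 had 50.9 CPM (43.6 to 59.0) against 5.74 (4.31 to 7.49). Egfr did not follow, with 3.76 CPM at day 3 (2.001 to 6.43) and 2.44 untreated (1.55 to 3.67). The interval of its ratio includes no difference. Adam10 in near-empty barcodes was above its chief-like level in both libraries, and Errfi1 was so in the untreated one. The upper estimate of free RNA over all epithelial cells was 53.5% of UMIs at day 3 and 8.66% untreated. Without a subtraction within classes, the part of free RNA in the chief-like Adam10 and Errfi1 differences was not tested. In parietal-like cells Errfi1 alone was past 2-fold at day 3 against untreated, at 40.8 CPM (37.5 to 44.3) and 19.4 (16.6 to 22.5), where 5.51% of 15360 genes were. Lrig1 in these cells had a ratio of 0.92, while Egfr at -0.12, Erbb2 at 0.05 and Erbb3 at 0.01 did not differ beyond counting error. Neck-like cells had 4 members past 2-fold, Errfi1, Adam10, Erbb2 and Erbb3, where 20.7% of 14636 genes were. Here too the main cluster differed, with 764 of 1038 cells in cluster 18 at day 3 and 1710 of 1978 in cluster 6 untreated.

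At day 1, the unnamed cells had 58.8 CPM of Erbb3 (56.3 to 61.4), 39.6 of Erbb2 (37.5 to 41.7), 14.7 of Egfr (13.5 to 16.1), 33.1 of Errfi1 (31.2 to 35.1) and 19.5 of Lrig1 (18.1 to 21.1). The 277 parietal-like cells left at day 1, 219 of them in a cluster led by Obp2a and Hamp2, had more Egfr and Errfi1 than untreated parietal-like cells. Egfr had 12.7 CPM there (8.84 to 17.6) against 4.34 untreated (3.09 to 5.94), and Errfi1 had 64.5 (55.4 to 74.7) against 19.4. Only these 2 members were past 2-fold in the class, where 14.5% of 13221 genes were higher. At day 3, parietal-like Egfr had 3.93 CPM (2.96 to 5.11). Egfr in near-empty barcodes was above its parietal-like level at day 1, at day 3 and untreated. The upper estimate of free RNA over all epithelial cells was 47.4% of UMIs at day 1, 8.66% untreated and 53.5% at day 3. Its part in the parietal-like differences was not tested. The named pit-like cells of day 1 were shallow, with a median of 757 UMIs against 2616 untreated, and 45.6% of genes were 2-fold higher in them than in untreated pit-like cells, so their 7 members past 2-fold are not read as a result about the members.

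A finer clustering split most of the unnamed day 1 cells into pit-like and proliferating-like ones. There, 2292 pit-like day 1 cells had 106 CPM of Adam10 (102 to 111), 77.5 of Erbb3 (73.6 to 81.6), 17.3 of Egfr (15.5 to 19.3) and 15.9 of Lrig1 (14.1 to 17.8). The 744 proliferating-like cells had 58.4 CPM of Adam10 (54.6 to 62.3), 36.4 of Erbb3 (33.4 to 39.6), 12.1 of Egfr (10.5 to 14.0) and 21.6 of Lrig1 (19.4 to 24.1). The 2 groups therefore differ in Adam10, Erbb3, Egfr and Lrig1 by more than counting error, with Lrig1 in the opposite direction to the other 3. At that clustering the pit-like ratios of day 1 to untreated were 1.79 for Lrig1, 1.63 for Errfi1, 1.17 for Erbb3 and 0.84 for Erbb2.

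AREG differences within classes were small and pointed in both directions. In neck-like cells Errfi1 had 64.4 CPM at day 3 with AREG against 91.4 at day 3, and Erbb4 had 10.8 (8.74 to 13.2) against 16.2 (12.8 to 20.2). In pit-like cells Errfi1 was on the other side, at 29.4 CPM with AREG (26.9 to 32.1) against 25.1 (22.8 to 27.7), and Lrig1 had 12.5 (10.9 to 14.3) against 9.52 (8.10 to 11.1). Erbb2 was lower in pit-like cells with AREG, at 54.5 CPM (51.0 to 58.1) against 65.0 (61.2 to 69.0). Free RNA was not subtracted within classes, so its part in these AREG differences was not tested. In proliferating-like cells Erbb3 had 49.0 CPM with AREG (42.9 to 55.7) against 35.7 (28.7 to 43.8), and Lrig1 had 24.3 (20.1 to 29.2) against 34.9 (27.97 to 43.0). With a coarser clustering neither was beyond counting error, as proliferating-like Erbb3 had 50.5 CPM with AREG against 43.0 and Lrig1 23.6 against 26.2. Egfr itself had no class in which its interval left out equality. No member was past 2-fold in any of the 5 classes compared. By class, 0.0725% to 2.04% of genes tested were at least 2-fold higher and 0.199% to 2.55% lower. With backgrounds that low, the absence of calls is not read as a result about the members.

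The share of cells with a UMI of a member follows depth, so cells were thinned to 500 UMIs each, which left out none. Adam10 was then seen in 2.26% of untreated epithelial cells (exact Clopper-Pearson interval 2.02 to 2.53), 4.73% at day 1 (4.07 to 5.46), 4.82% at day 3 with AREG (4.46 to 5.20) and 4.85% at day 3 (4.39 to 5.34). Unthinned shares were 12.5%, 37.5%, 24.8% and 31.0%, at median depths of 2511.5, 2918, 2685 and 3013.5 UMIs. The thinned shares of the other 7 members lay between 0.375% and 3.05%. No cluster was named as an immune or other class that should lack these genes, so these shares have no such background beside them. Erbb2 and Erbb3 were seen together in 538 of 3743 epithelial cells at day 1 and in 187 of 13870 untreated cells, unthinned. These cells held 38677853 and 61608615 UMIs in that order, so mean depth was higher at day 1. Joint detection rises with depth and was not computed on thinned cells, so these counts are not read as a difference.

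Across 23 sums of cells by class and library, Egfr and Erbb2 were the most alike of the member pairs, with a Pearson r of 0.94 of log2(CPM + 1), followed by Adam17 and Adam10 with 0.87 and Erbb3 and Adam10 with 0.81. Egfr and Lrig1 had -0.18. These sums share libraries and depth, so the values describe and do not test. Of the 23 sums, 18 had at least 10 UMIs of Egfr and 19 of Erbb2. Both genes had 0 UMIs in endocrine-like cells at day 3 with AREG, and the weight of such low sums in r was not tested. Of all genes with a mean of at least 10 CPM, those most like Egfr were Trpm4 (0.94), a calcium-activated cation channel, Erbb2 (0.94) and Kcnk10 (0.94), a potassium channel. Most like Erbb2 were Trpm4 (0.96), Arhgap42 (0.94) and Gk (0.94), and most like Erbb3 were Cant1 (0.97), Asap2 (0.97) and Klf3 (0.97). Erbb4 was most like Lrrc4c (0.93), Epha6 (0.91) and Thrb (0.91). For Lrig1 they were Rint1 (0.92), Nr4a2 (0.91) and Dcaf8 (0.90), and for Errfi1 Uck2 (0.93), Pik3c2a (0.92) and Nfia (0.92). Adam17 was most like Gata4 (0.95), Atxn3 (0.95) and Nr2f2 (0.93), and Adam10 most like Rap1a (0.97), Larp4b (0.97) and Fzd5 (0.97).

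The other genes of the pathway were grouped into 6 lists by role. For day 1 against untreated, 13.4% of all 20880 genes tested were at least 2-fold higher and 1.95% lower. Among genes in the members' abundance range of 10.9 to 71.8 CPM, 26.4% were higher. Some list genes lie outside that range. Of 11 ERBB ligand genes, 6 were at least 2-fold higher at day 1 and 1 lower, with a median log2 ratio of 1.12. Areg had 81.0 CPM at day 1 against 7.16 untreated, and Btc, which encodes betacellulin, had 22.2 against 7.34. Of 15 sheddase cofactors, inhibitors and other ADAM genes, 12 were 2-fold higher and none lower, the largest share of any list, with a median of 1.20. Tspan15, a tetraspanin partner of ADAM10, had 212.6 CPM at day 1 against 68.1 untreated, and Tspan33, of the same tetraspanin group, 21.5 against 6.90. Frmd8, which stabilises the iRhom partners of ADAM17, had 19.3 against 7.92.

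Of 23 adaptors and kinases downstream, 7 were 2-fold higher at day 1 and none lower (median 0.85). Mapk3, which encodes the kinase ERK1, had 214.5 CPM at day 1 against 56.8 untreated. Of 11 endocytosis and ubiquitin ligase genes 3 were higher and none lower (median 0.77), with the epithelial ubiquitin ligase gene Cblc at 52.7 CPM against 15.6. The counts of the adaptor and endocytosis lists lie near the 26.4% of the members' abundance range and are not read as results about these lists. Of 15 other negative regulators 7 were higher and none lower (median 0.86). Socs3, an inhibitor of cytokine signalling, had 59.4 CPM at day 1 against 15.4 untreated, whereas Dusp6, an ERK phosphatase, had 9.20 against 16.1. Of 16 other receptor tyrosine kinases 7 were higher and 1 lower (median 0.85), with Epha2 at 38.2 CPM against 6.72 and Kit at 6.39 against 14.2.

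Between day 3 and day 1 the ligands had a median of -0.38 and the sheddase cofactors one of -0.69, and the medians of the other 4 lists lay from -0.01 to 0.08. Areg had 3.74 CPM at day 3 against 81.0 at day 1, and Hbegf, another EGFR ligand, 21.5 against 54.1, and 3 of 11 ligands were 2-fold lower and none higher. Of the sheddase cofactors 3 of 15 were lower and none higher, while Adam17 and Adam10 themselves were at 0.29 and 0.12. Over all 21035 genes tested, 3.79% were at least 2-fold lower and 3.51% higher. Socs3 had 15.7 CPM at day 3 against 59.4 at day 1, and Dusp6 had 26.9 against 9.20. Between day 3 with AREG and day 3 no gene of any list was past 2-fold, where 0.0511% of 21547 genes were higher and 0.227% lower. Nrg1, a ligand of ERBB3 and ERBB4, had the largest ratio of the named ligands at 0.48, with 94.3 CPM with AREG against 67.2 at day 3.

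**Figure D4:**
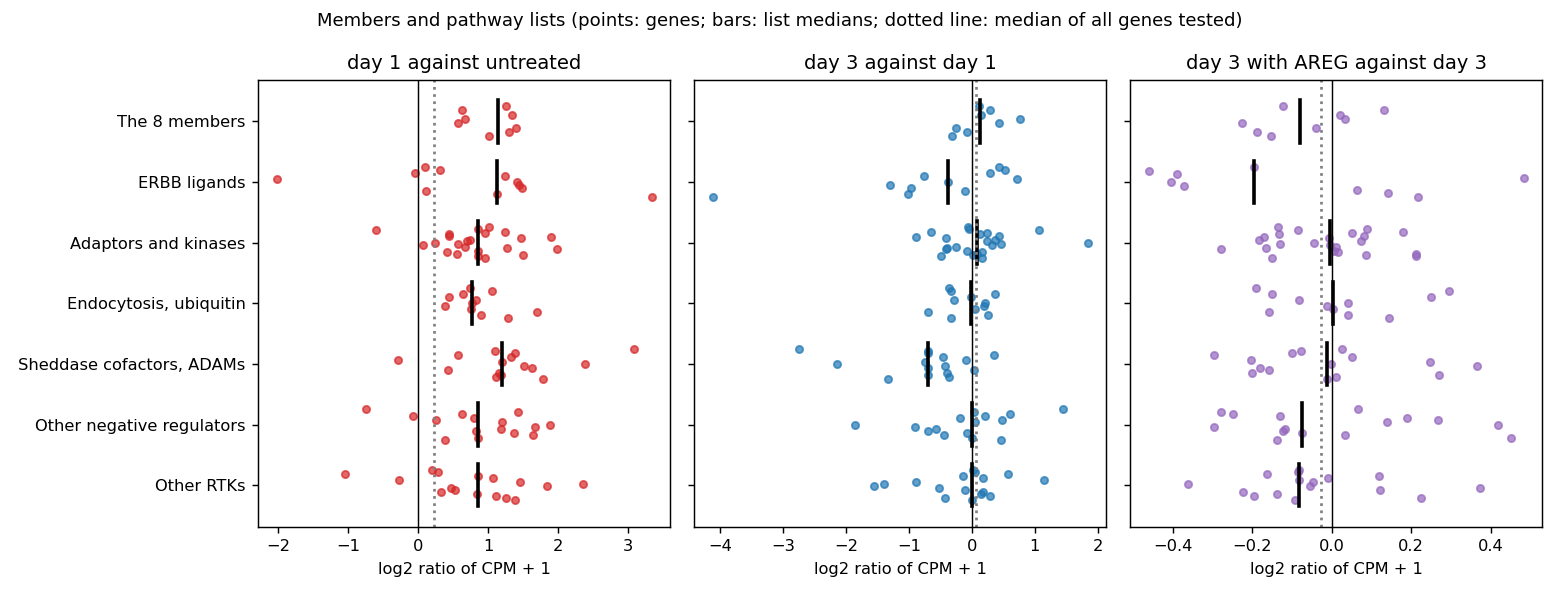
Log2 ratios of CPM + 1 (x axis) of single genes in the members and in the 6 pathway lists (y axis) for the 3 main comparisons, with black bars at the list medians. List medians run from 0.77 to 1.20 for day 1 against untreated, and the sheddase cofactors reach -0.69 for day 3 against day 1.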

How the data were processed

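The deposited values are raw UMI counts per gene and barcode, unfiltered, from PIPseq T20 3' capture with 25000 cells loaded per library, per the labels' protocols. GRCm39 (mm39) is the genome build per the submitters' processing notes. The aligner, the counter and the handling of intronic reads were not given in the sources used here. Both the members and the lists were chosen with earlier results of these data known.

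Cells had at least 500 UMIs, 200 genes and at most 50% mitochondrial UMIs, which left 13897 (untreated), 3926 (day 1), 12923 (day 3 with AREG) and 7986 (day 3). Scrublet marked 6, 0, 5 and 15 cells, which were removed. With so few marks the calls were not relied on, and the share of doublets left was not measured. Cells were clustered with scanpy 1.11.5 (2000 variable genes, 40 components, 15 neighbours, Leiden resolution 1, 29 clusters, no integration). Classes are rebuilt here from marker lists, with at least 3 markers higher than in other classes. A rule added after the clusters were seen leaves cycle-named clusters unnamed unless 2 cycle markers stand among their 10 leading genes.

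Counts were summed over epithelial cells and scaled to CPM. Ratios carry a pseudocount of 1 CPM. A gene was read in a comparison when its 2 libraries summed to 10 UMIs or more, and 2-fold was the call. Intervals are exact Poisson for levels, conditional exact binomial for ratios and Clopper-Pearson for shares, all at 95%. UMIs are counted molecules. All 8 members were named. Of each list, the 2 highest and 2 lowest ratios among genes with 10 CPM could be named, and 3 genes most like each member. The interval scripts were tested on simulated data. A repeated gene symbol (27 rows) was read at its first entry. Alternatives were 1000 UMIs per cell, mitochondrial limits, a pseudocount of 10, no low-count filter, totals without abundant genes, per-cell means, free RNA subtraction, fixed class make-up and other resolutions, and 3 added after the data were seen.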

Additional observations from a re-analysis of the deposited data

Results flagged for a closer look

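In 4 cases a member's ratio had opposite signs in different classes, each with a 95% counting interval that leaves out no difference. The difference between classes was not tested, since each group had 1 library. Errfi1 at day 3 with AREG against day 3 had a log2 ratio of 0.22 in pit-like cells and -0.50 in neck-like cells. Lrig1 in the same comparison had 0.45 in chief-like cells and 0.36 in pit-like cells, and -0.50 in proliferating-like cells. With a coarser clustering (resolution 0.5) the chief-like Lrig1 ratio was 0.23 and the proliferating-like one -0.14, and both intervals include no difference. Lrig1 at day 3 against day 1 had 0.72 in parietal-like cells and -1.44 in pit-like cells, and the day 1 pit-like cells had a median of 757 UMIs. Erbb2 at day 3 against day 1 had 1.42 in neck-like cells, from 4 UMIs in 139 neck-like cells at day 1, and -0.76 in parietal-like cells.

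A cluster outside the epithelium, used in no comparison, had a signal of 3 members above the epithelial level of the same library. Its 154 cells all came from day 1 and were led by Nbea, and Epcam was at 12.4 CPM. Erbb4 had 539 CPM there (480.5 to 603.4), 51.0 times the level in day 1 epithelial cells, Egfr had 193 (158.3 to 232.5), 13.1 times, and Adam17 46.0 (30.0 to 67.4). Erbb2 had 0 UMIs, which allows up to 6.52 CPM. The annotated gene spans were 1076 kb for Erbb4, 166 kb for Egfr, 101 kb for Adam10 and 95.6 kb for Lrig1. They were 50.1 kb for Adam17, 25.2 kb for Erbb2, 22.1 kb for Erbb3 and 14.97 kb for Errfi1. Adam10 and Lrig1, longer than Adam17, stood at 0.473 and 0.638 times the level in day 1 epithelial cells. Erbb3 and Errfi1, shorter than Adam17, stood at 0.220 and 0.192 times that level. Whether the counts in this cluster come from introns was not tested.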

How the results depend on the processing

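No paired analysis was possible because each group has 1 library, and no replicate could be left out for the same reason. The count of members past 2-fold and their median ratio, in 5 comparisons under 12 alternatives, moved in 20 of 120 cases. With a pseudocount of 10 CPM, the counts were 2 for day 1 against untreated, 3 for day 3 with AREG against untreated and 3 for day 3 against untreated, with medians of 0.75, 0.80 and 0.89. The medians over all genes were then 0.047, 0.056 and 0.066. Without abundant genes the counts were 2, 2 and 3, with medians of 0.84, 0.80 and 0.88. Of the genes of like abundance, 12.9%, 6.27% and 6.82% were then at least 2-fold higher. The share of all genes past 2-fold was not computed under the alternatives, so changes in these counts are not read as particular to the members. Subtracting free RNA gave medians of 0.91 for day 1 against untreated and 1.00 for day 3 against untreated, and a count of 1 for day 3 against day 1. Without the unnamed epithelial clusters, day 1 against untreated had a count of 2 and a median of 0.91, beside 0.52 over all genes. The median for day 3 against day 1 was 0.046 with per-cell means and 0.040 over all cells. It was -0.22 with class make-up held, a setting that here used only parietal-like, pit-like and neck-like cells. No call changed sign. For single members the sign was kept in 95 of 96 cases for day 1 against untreated, 87 of 96 for day 3 against day 1, 92 of 96 for day 3 with AREG against day 3 and all 96 for each L635 library of day 3 against untreated. Apart from the alternatives' own construction, the cause of these shifts was not tested. Totals limit the low members most: Egfr rests on 418 to 568 UMIs per library and Erbb4 on 409 to 641.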
